A study of Homo sapiens with 3 samples.

Results

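The genes described here are 57 members of growth factor signalling: ligands and receptors of the IGF and insulin, HGF, EGF, FGF and PDGF, VEGF and KIT axes, the binding and docking proteins IGFBP3, IGFBP5, IRS1 and IRS2, and the RAS, PI3K, AKT and calcium effectors HRAS, NRAS, PIK3CA, AKT1, ITPR1 to ITPR3, CAMK2A and CAMK2D. They were chosen by name, and every MEIS1 ChIP-seq peak that the deposited annotation named for 1 of them was taken. This gave 24 of 5968 peaks in CWR22Rv1 LV-MEIS1 cells and 6 of 2047 peaks in HOXB13ko-LV-MEIS1 cells. CWR22Rv1 (22Rv1) is an established human prostate carcinoma line. LV-MEIS1 cells carry a lentiviral MEIS1 construct beside their own HOXB13. HOXB13ko-LV-MEIS1 cells carry the same construct after CRISPR knockout of HOXB13, and they derive from a pool of 6 knockout clones that had been made to express Cas9. Both lines were grown in medium with puromycin, the drug that selects for the vectors. The Cas9 vector of the knockout cells also carried puromycin resistance, so in them the drug did not select for the MEIS1 construct separately.

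MEIS1 was immunoprecipitated 3 times from LV-MEIS1 cells and 2 times from HOXB13ko-LV-MEIS1 cells, and the authors pooled each line before calling peaks. The headers of both lists name the same input, of CWR22Rv1 cells, although the study's methods speak of input for each line. The pools held 202428594 and 105763683 filtered tags, and the input held 39102495. Each line therefore has 1 list with no replicate error, so line, culture, immunoprecipitation and depth cannot be told apart between the lists, and no difference between them was tested. Peaks are counted under the gene the annotation names, so a gene without a named peak can still hold a peak named for another gene, and peaks of that kind are described near the end. Where no position passed the authors' q-value of 0.01, the gene is not thereby shown to be unbound. The files hold binding and no RNA, so neither the MEIS1 construct, the loss of HOXB13 nor the prostate origin of the cells could be checked in them.

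Growth factors bind the outer part of receptor tyrosine kinases, which then recruit docking proteins, activate RAS and PI3K, and raise intracellular calcium through the receptors for inositol trisphosphate. In the prostate, stromal cells are known to supply IGF1, HGF, FGF7 and FGF10, while epithelial cells carry many of the receptors. MEIS1 is a TALE homeodomain protein that binds DNA at the core word TGACA, often together with a HOX protein, and HOXB13 is the HOX protein of prostate epithelium, with the core ATAAA.

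The DNA under the main peaks is given first, because several of the results concern its letters. The next lines hold 61 bases of hg38 for the 5 LV-MEIS1 member peaks of highest fold enrichment, in order. Sequences with TGACA are centred on the copy nearest to the summit, the base of highest read pileup, and are read on the strand that spells it. The others are centred on the summit and read on the plus strand. At the distal upstream peak of VEGFC the copy lies 78 bp from the summit, so its printed bases do not reach the summit. Capitals mark TGACA or its reverse complement TGTCA, and ATAAA or its reverse complement TTTAT.
INSR, intron 2, upstream peak (chr19:7266089-7266149, plus): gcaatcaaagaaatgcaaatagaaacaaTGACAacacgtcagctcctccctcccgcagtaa
VEGFC, intron 4 (chr4:176702223-176702283, minus): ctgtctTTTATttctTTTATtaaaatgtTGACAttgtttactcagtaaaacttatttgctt
VEGFC, distal upstream (chr4:176942458-176942518, plus): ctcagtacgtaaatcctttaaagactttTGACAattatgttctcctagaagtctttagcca
FGF1, upstream (chr5:142713564-142713624, minus): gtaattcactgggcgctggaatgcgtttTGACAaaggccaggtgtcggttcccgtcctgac
ITPR2, intron 2 (chr12:26769412-26769472, plus): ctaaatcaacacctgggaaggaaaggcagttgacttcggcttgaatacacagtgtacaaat

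Other LV-MEIS1 peaks of ligands, a binding protein, receptors, a docking protein and a calcium channel show the range of the sites. In the IRS1 peak TTTAT follows TGACA directly, and in the IGFBP3 peak TTTAT ends 2 bases before TGACA. The TGACA of the IGF1 peak printed here lies 82 bp from the summit, so its printed bases do not reach the summit.
HGF, upstream (chr7:81835491-81835551, minus): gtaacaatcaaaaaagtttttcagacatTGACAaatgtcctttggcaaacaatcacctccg
EGFR, upstream (chr7:54987932-54987992, plus): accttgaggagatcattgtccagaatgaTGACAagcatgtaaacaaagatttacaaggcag
IGF1, upstream (chr12:102503286-102503346, plus): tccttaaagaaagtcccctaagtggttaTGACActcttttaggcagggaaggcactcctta
IGFBP3, upstream (chr7:45923501-45923561, plus): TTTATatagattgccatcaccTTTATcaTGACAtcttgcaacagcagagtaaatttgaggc
IRS1, intron 1 (chr2:226754998-226755058, plus): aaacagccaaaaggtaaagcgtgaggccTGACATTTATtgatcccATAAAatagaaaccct
INSR, intron 2, downstream peak (chr19:7199882-7199942, plus): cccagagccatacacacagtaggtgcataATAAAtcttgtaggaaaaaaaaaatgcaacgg
MET, intron 2 (chr7:116730828-116730888, plus): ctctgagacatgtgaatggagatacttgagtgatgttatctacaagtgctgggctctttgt
ITPR2, intron 5 (chr12:26721977-26722037, minus): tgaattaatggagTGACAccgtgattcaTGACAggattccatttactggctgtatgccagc

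For HOXB13ko-LV-MEIS1 cells 5 of the 6 member peaks are given next, centred on their summits on the plus strand. None of these 5 holds either word in the 61 bases.
FGF9, promoter (chr13:21671012-21671072): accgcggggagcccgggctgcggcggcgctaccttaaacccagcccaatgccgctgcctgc
KITLG, promoter (chr12:88580370-88580430): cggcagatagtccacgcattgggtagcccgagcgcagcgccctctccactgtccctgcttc
IGFBP3, distal upstream (chr7:46261791-46261851): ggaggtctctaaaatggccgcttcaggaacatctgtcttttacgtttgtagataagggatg
INSR, intron 2 (chr19:7197718-7197778): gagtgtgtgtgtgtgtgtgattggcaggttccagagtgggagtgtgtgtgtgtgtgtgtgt
ITPR2, intron 2 (chr12:26755529-26755589): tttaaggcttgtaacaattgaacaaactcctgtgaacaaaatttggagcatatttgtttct

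Peaks of LV-MEIS1 cells were named for 12 members, and peaks of HOXB13ko-LV-MEIS1 cells for 6. The first count is 21.1% of the 57 genes (95% Wilson interval, 12.5 to 33.3%), beside 14.7% of 20007 protein-coding genes. The second is 10.5% (4.91 to 21.1%), beside 5.64% of protein-coding genes. These intervals, like all those given here, cover counting error only. Those for shares of peaks treat each peak as independent. Some genes hold several LV-MEIS1 peaks, with summits as near as 513 bp, so such intervals can be too narrow. Both intervals included the share of all coding genes. The members are long genes, with a median of 71.6 kb against 27.5 kb over all protein-coding genes. Of the 36 members of at least 50 kb, 11 were named for an LV-MEIS1 peak (30.6%, 18 to 46.9%), beside 21.4% of all coding genes of that length, and 4 were named for a HOXB13ko-LV-MEIS1 peak (11.1%, 4.41 to 25.3%), beside 6.97%. Members with a named peak had a median length of 97.7 kb, and those without one 69.0 kb.

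IGF1, IGFBP3, INSR and ITPR2 were named in both lists. IRS1, HGF, MET, EGFR, FGF1, FGF10, VEGFC and CAMK2D were named only in the LV-MEIS1 list, FGF9 and KITLG only in the HOXB13ko-LV-MEIS1 list, and 43 members in neither. Most protein-coding genes were also in neither, as 14.7% were named for an LV-MEIS1 peak and 5.64% for a HOXB13ko-LV-MEIS1 peak. Over all protein-coding genes, 15.2% of those named for an LV-MEIS1 peak were also named in the other list, and 39.6% in the opposite direction. The corresponding counts were 4 of 12 and 4 of 6 members, and the 4 of 57 members in both stand beside 2.23% of all protein-coding genes. A shared gene name was not a shared position: none of the 24 LV-MEIS1 member peaks overlapped a HOXB13ko-LV-MEIS1 peak by even 1 bp, which allows a share of up to 12.5%, beside 7.66% of all LV-MEIS1 peaks. Of the 6 HOXB13ko-LV-MEIS1 member peaks 0 overlapped, which allows a share of up to 50%, beside 22.3% of all peaks of that list. Both limits lay above the share of the whole list, so a difference from it was not detectable at this number of peaks.

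**Figure D1:**
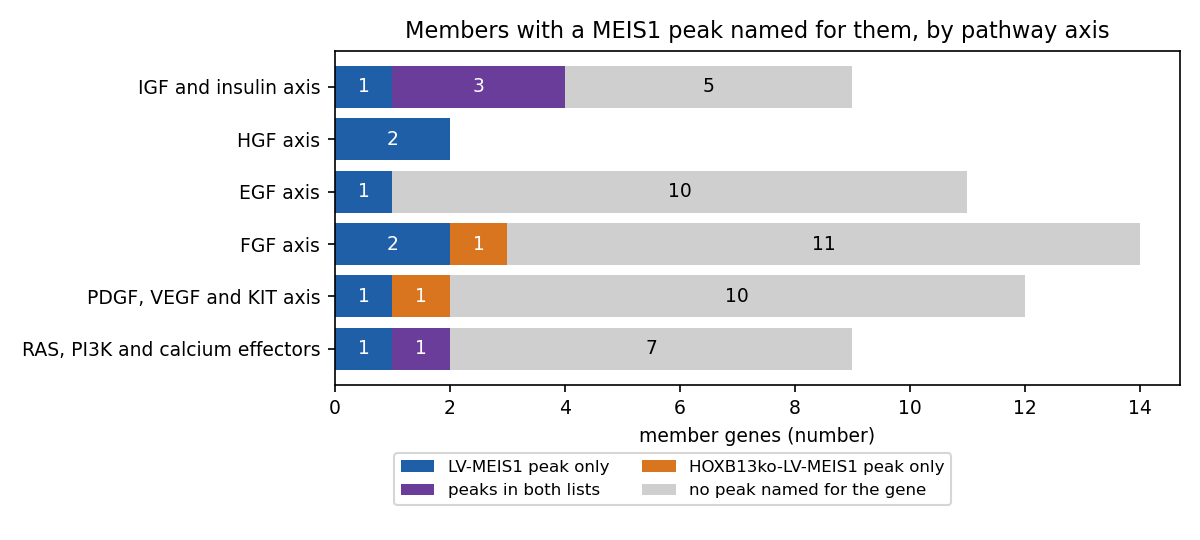
Number of member genes (horizontal axis) named for a MEIS1 peak in each pathway axis (vertical axis), coloured by the list that holds the peak. Of the 9 genes of the IGF and insulin axis, 3 have peaks in both lists and 1 in the LV-MEIS1 list only, whereas 10 of the 11 genes of the EGF axis have no peak named for them; ERBB4, 1 of these, has 6 LV-MEIS1 peaks in its body that are named for other genes.

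By the names in the annotation, and with no test of the spread, the peaks fell on the axes as follows. The IGF and insulin axis held 10 LV-MEIS1 peaks on 4 of 9 genes and 3 HOXB13ko-LV-MEIS1 peaks on 3 of 9. HGF and its receptor MET, the 2 genes of their axis, had 1 LV-MEIS1 peak each and none in the other list. Of the 11 EGF axis genes 1 was named, EGFR, although ERBB4 held 6 LV-MEIS1 peaks named for other genes, and of the 14 FGF axis genes 2 were named in the LV-MEIS1 list and 1 in the other. The 12 genes of the PDGF, VEGF and KIT axis held 4 LV-MEIS1 peaks, all of VEGFC, and 1 HOXB13ko-LV-MEIS1 peak, of KITLG. Among the 9 intracellular effectors, ITPR2 and CAMK2D held 5 LV-MEIS1 peaks, and ITPR2 held 1 in the other list.

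Among the 24 ligands, IGF1, the main circulating and stromal ligand of the IGF1 receptor, had the most LV-MEIS1 peaks, together with VEGFC. Each peak has a pileup, the depth of reads extended to 200 bp at the summit after scaling to the input, and a fold enrichment, which is that pileup over the local background with 1 added to both. All 4 IGF1 peaks lay upstream of the gene, at 34882, 23419, 22589 and 1233 bp from the annotated transcription start site (TSS). Their fold enrichments were 3.72, 3.74, 6.19 and 3.70, with authors' q-values of 1.19e-06, 3.83e-05, 4.24e-16 and 0.000173. The third (chr12:102503050-102503444) stood at the 50.3rd percentile of fold enrichment in its list, and the other three at or below the 3.5th. So 1 of these sites was of middle rank and the others were among the weakest of the list. Among the 12 members with an LV-MEIS1 peak, IGF1, ITPR2 and VEGFC had 4 and IRS1 had 3. Of all protein-coding genes with such a peak, 7.49% had 3 or more and 3.46% had 4 or more. These shares were not matched for gene length. Coding genes with an LV-MEIS1 peak had a median length of 49.2 kb, against 97.7 kb for members with a peak in either list.

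The weakest IGF1 peak is also the one nearest to a start of transcription. HOMER, the annotation tool, called it intergenic, because its promoter class reaches from 1000 bp upstream to 100 bp downstream of the TSS. Its summit lay 134 bp upstream of another IGF1 transcript start in GENCODE release 44, and the peak (chr12:102481778-102482063) overlapped the IGF1 promoter window of RefSeq. That window, 250 bases before to 50 after a start site, is given below for this reason (GRCh38.p14, minus strand), with TGTCA in capitals. The word lies 67 bp from the summit.
IGF1 promoter (chr12:102481698-102481997): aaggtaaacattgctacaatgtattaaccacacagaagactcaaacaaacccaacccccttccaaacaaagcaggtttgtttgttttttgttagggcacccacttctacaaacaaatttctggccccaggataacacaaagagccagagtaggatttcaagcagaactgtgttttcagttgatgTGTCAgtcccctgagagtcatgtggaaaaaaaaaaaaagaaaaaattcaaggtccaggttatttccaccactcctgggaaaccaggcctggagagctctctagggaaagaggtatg

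In HOXB13ko-LV-MEIS1 cells the IGF1 peak lay on the other side of the gene, 124168 bp downstream of the TSS and beyond its end. It fell in a THE1C-int element, an internal part of an LTR retrovirus, with a fold enrichment of 5.62 (45.1st percentile of its list, q = 3.64e-09). The nearest LV-MEIS1 summit was 105.2 kb away. Thus all LV-MEIS1 peaks of IGF1 were upstream and the 1 peak of the knockout line was downstream.

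VEGFC, the lymphatic growth factor of the VEGF family, had 4 LV-MEIS1 peaks over 240.3 kb and none in the other list, where the nearest summit was 8460.0 kb away. Upstream peaks lay at 149821 and 90641 bp from the TSS, with fold enrichments of 7.89 and 5.12. A pair of peaks in intron 4 of 6 had summits 513 bp apart, at 90520 and 90007 bp downstream of the TSS, and fold enrichments of 9.23 (86.6th percentile, q = 1.7e-21) and 5.32 (q = 4.18e-08). The stronger peak of the pair (chr4:176702027-176702408) holds TTTAT 2 times in the sequence printed above. It ranked second among all member peaks.

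The other ligands had single peaks. HGF, the stromal ligand of MET, had an LV-MEIS1 peak 65340 bp upstream in a MER20 DNA transposon, with a fold enrichment of 6.85 (62.9th percentile, q = 3.12e-21). FGF1 had 1 in unique sequence 15535 bp upstream, with 7.44 (71.4th percentile, q = 1.69e-15). FGF10, the mesenchymal FGF of prostate budding, had 1 at 385908 bp from its TSS on the downstream side, with 4.72 (15.2nd percentile, q = 5.35e-06). The FGF10 site was the farthest of all member peaks from the gene it was named for.

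FGF9 and KITLG, the ligand of KIT, were the members with a peak that the annotation classed as promoter. Both peaks were in the HOXB13ko-LV-MEIS1 list. LV-MEIS1 peaks at IGF1, above, and PIK3CA, below, lay near a start site without that class. The FGF9 summit (peak chr13:21670904-21671154) lay 34 bp upstream of the TSS, with a fold enrichment of 4.47 (19.2nd percentile, q = 8.02e-09). The KITLG summit (peak chr12:88580277-88580619) lay 73 bp downstream of the TSS, with 5.43 (40.4th percentile, q = 1.3e-08). Both had fold enrichments below the median of their list, 5.85, in GC-rich DNA of 76.6% and 63.7% G or C over 201 bases. The local background of the FGF9 peak was 2.07 times the genome average, and that of KITLG 1.22 times. Nearest LV-MEIS1 summits were 436.7 and 313.2 kb away. The KITLG promoter window of RefSeq (GRCh38.p14, minus strand), which overlaps its peak, holds no TGACA on either strand. Its 1 copy of ATAAA, in capitals, is part of the letters TATAAA, the TATA box word.
KITLG promoter (chr12:88580422-88580721): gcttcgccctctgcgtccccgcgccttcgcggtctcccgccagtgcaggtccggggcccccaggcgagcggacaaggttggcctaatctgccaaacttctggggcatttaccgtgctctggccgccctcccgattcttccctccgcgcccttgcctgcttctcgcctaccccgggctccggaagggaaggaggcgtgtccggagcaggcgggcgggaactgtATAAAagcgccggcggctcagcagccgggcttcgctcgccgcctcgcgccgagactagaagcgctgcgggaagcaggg

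The other 17 ligands had no peak named for them in either list: IGF2, EGF, AREG, EREG, BTC, TGFA, NRG1, NRG3, FGF2, FGF5, FGF7, FGF18, PDGFA, PDGFB, PDGFC, PDGFD and VEGFA. IGFBP3, a secreted protein that binds IGF ligands, had 1 LV-MEIS1 peak 2261 bp upstream of its TSS, with a fold enrichment of 4.78 (16.5th percentile, q = 3.14e-08) and TGACA 2 bp from the summit. Its HOXB13ko-LV-MEIS1 peak lay 340549 bp upstream in a MER11B element, an LTR, with 6.59 (65.8th percentile, q = 2.57e-13). The LV-MEIS1 summit nearest to this one, of any gene, was 246.8 kb away. IGFBP5 had none.

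**Figure D2:**
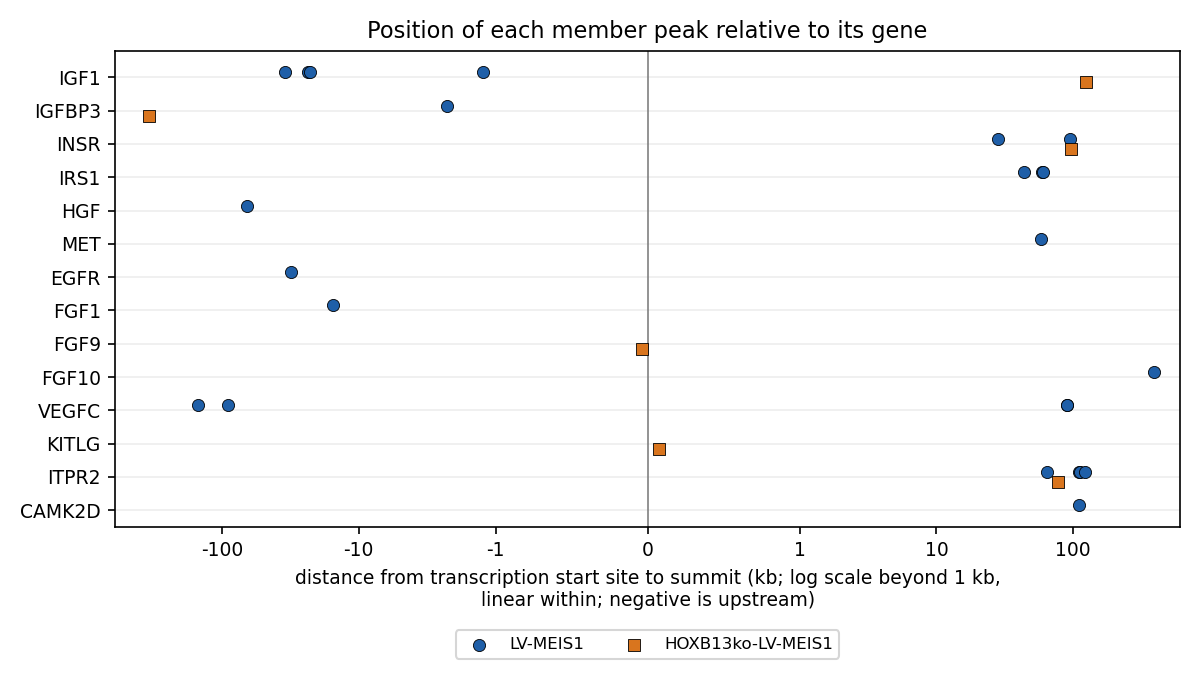
Signed distance from the transcription start site to the summit of every member peak (horizontal axis, kb, log scale beyond 1 kb and linear within), for the 14 genes with a peak. Circles are LV-MEIS1 and squares HOXB13ko-LV-MEIS1 peaks; the 2 squares at the start site are FGF9 and KITLG, and the nearest circle is the IGF1 peak 1233 bp upstream.

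Among the 17 receptors, INSR, MET and EGFR had LV-MEIS1 peaks and INSR also had 1 in the other list. INSR, the insulin receptor, held the strongest member peak of either list (chr19:7265973-7266297), in an L1ME4a LINE element of intron 2 of 20, 28171 bp downstream of the TSS. Its fold enrichment was 10.26, the 91.6th percentile of the LV-MEIS1 list (q = 1.66e-28). A second peak 66219 bp further into the same intron had 5.21 (26.2nd percentile, q = 1.52e-07). The HOXB13ko-LV-MEIS1 peak of INSR had its summit 2164 bp beyond this second peak, in a (GT)n simple repeat, with 4.01 (11.9th percentile, q = 0.000595). It was the weakest of the 6 member peaks of its list, and its distance to an LV-MEIS1 summit was the smallest.

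EGFR, the receptor of EGF, had its peak 31034 bp upstream in an L2c LINE element. The pileup there, 49.64, was the highest of the 24, over a local background of 6.6, and the fold enrichment was 6.66 (59.8th percentile, q = 1.11e-22). MET had its peak in an L2c element of intron 2 of 20, 58468 bp downstream, with 4.99 (20.9th percentile, q = 2.9e-08). The nearest HOXB13ko-LV-MEIS1 summits were 1460.5 and 1524.3 kb away. No peak was named for the other 14 receptors: IGF1R, IGF2R, ERBB2, ERBB3, ERBB4, FGFR1, FGFR2, FGFR3, FGFR4, PDGFRA, PDGFRB, KDR, FLT1 and KIT.

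IRS1, which couples the insulin and IGF1 receptors to PI3K, had 3 LV-MEIS1 peaks in its single intron, 43754, 59477 and 60323 bp downstream of the TSS. The first and second had fold enrichments of 5.86 and 5.91 (q = 3.49e-09 and 4.94e-10). The third had 2.79 (0.2nd percentile, q = 0.00146), at a local background 3.11 times the genome average, the highest of the member peaks. IRS1 had no peak in the knockout line, where the nearest summit was 358.9 kb away, and IRS2 had none in either.

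ITPR2, a calcium channel of the endoplasmic reticulum opened by inositol trisphosphate, had 4 LV-MEIS1 peaks in introns 2, 4, 5 and 8 of 56. They lay between 63756 and 121844 bp downstream of the TSS. Their fold enrichments were 7.02, 6.17, 6.06 and 4.42 (q between 2.06e-10 and 3.09e-15). A HOXB13ko-LV-MEIS1 peak lay in the same intron 2, within a MER41-int LTR element, 77639 bp from the TSS, with 6.12 (56.3rd percentile, q = 2.68e-12). Its summit fell between those of the first and second LV-MEIS1 peaks, 13883 bp from the nearer. CAMK2D, a calcium and calmodulin kinase subunit, had 1 LV-MEIS1 peak in intron 3 of 17, 110664 bp downstream, with 4.67 (14.3rd percentile, q = 4.07e-09). HRAS, NRAS, AKT1, ITPR1, ITPR3 and CAMK2A, and the intracellular FGF homologues FGF12, FGF13 and FGF14, had no peak named for them, nor had PIK3CA, the catalytic PI3K subunit.

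**Figure D3:**
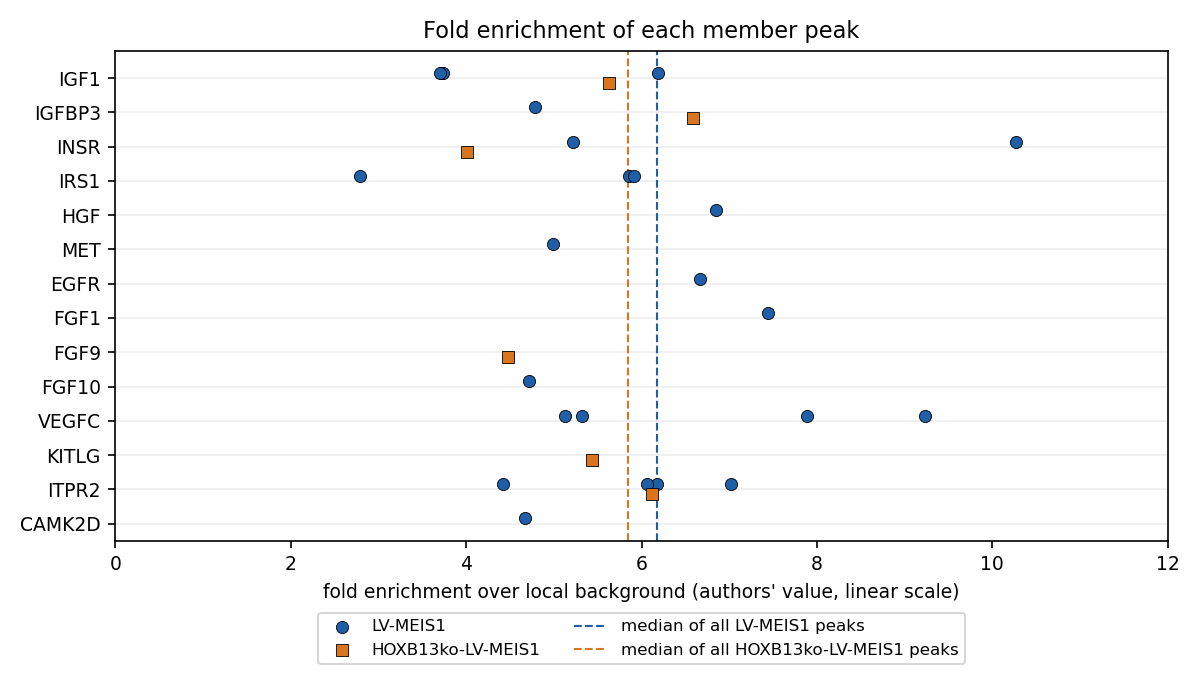
Fold enrichment over local background (horizontal axis, linear scale, the authors' values) of each member peak by gene; dashed lines are the medians of all peaks of each list, 6.17 and 5.85. INSR and VEGFC hold the 2 highest LV-MEIS1 points, 10.26 and 9.23, and most other points lie at or left of the lines.

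Peaks named for members had a median fold enrichment below that of their lists, a difference that was not tested. The 24 LV-MEIS1 peaks had a median fold enrichment of 5.59 (2.79 to 10.26) against 6.17 over all 5968, and the 6 HOXB13ko-LV-MEIS1 peaks 5.53 (4.01 to 6.59) against 5.85 over all 2047. In the LV-MEIS1 list 9 of 24 were above the list median, a count without an interval. The percentiles of the 24 ran from 0.2 at IRS1 to 91.6 at INSR, with a median of 35.7. LV-MEIS1 peaks in or next to members but named for other genes are left out here. Their percentiles ran from 2.1 to 95.8, both in ERBB4. The local background at these 24 peaks had a median of 1.54 times the genome average, against 1.15 times over the list. Whether the deeper pool accounts for the larger number of LV-MEIS1 genes was not tested. With the LV-MEIS1 list shortened to its 2047 peaks of highest fold enrichment, 3 members were left, INSR, VEGFC and FGF1. A cut by fold enrichment does not match the depth of the pools, and the share of all protein-coding genes that it left was not computed.

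LV-MEIS1 member peaks lay far from the start sites that the annotation uses. None of the 24 was annotated to a promoter, which allows a share of up to 12.5%, whereas 20.2% of all LV-MEIS1 peaks were promoter peaks (19.2 to 21.2%). Counted from GENCODE transcript starts, 1 of the 24 lay at a promoter (4.17%), the IGF1 peak above. Some others were nearer to a GENCODE start than to the annotated TSS. ITPR2 peaks lay 2260, 4021 and 4374 bp from 1, and the MET peak 6712 bp. Distances in this paragraph are otherwise to the annotated TSS, and the whole list was not measured from GENCODE starts. Introns held 13 of 24 (54.2%, 35.1 to 72.1%, beside 38% of all) and intergenic sequence 11 (45.8%, 27.9 to 64.9%, beside 37%). The median distance to the TSS was 62039.5 bp against 23121 bp, and 2 of 24 lay within 10 kb (8.33%, 2.32 to 25.8%, beside 38.1%). Of the 6 HOXB13ko-LV-MEIS1 peaks, promoters, introns and intergenic sequence held 2 each (33.3%, 9.68 to 70%), beside 24.5%, 21.5% and 41.5% of that list.

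The repeats under the peaks are described for each list, and a difference in kind between the lists was not tested. In LV-MEIS1 cells 9 of 24 summits lay in an annotated repeat (37.5%, 21.2 to 57.3%, beside 19.5% of all). Of these 8 were LINE elements (33.3% of the 24, 18 to 53.3%, beside 9.23%), at IGF1, INSR, EGFR, MET, ITPR2 and VEGFC, and 1 was the DNA transposon at HGF. LTR elements held 0 of 24, which allows up to 12.5%, beside 4.24%. In HOXB13ko-LV-MEIS1 cells 4 of 6 lay in repeats (66.7%, 30 to 90.3%, beside 40.5%), 3 of them LTR elements (50%, 18.8 to 81.2%, beside 25.1%), at IGF1, IGFBP3 and ITPR2. LINE elements held 0 of these 6, which allows up to 50%, beside 1.42%. That limit lies above the 33.3% of the LV-MEIS1 member peaks.

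TGACA, searched on both strands within 50 bp of the summit, was present at 16 of 24 LV-MEIS1 member peaks (66.7%, 46.7 to 82%) and at 56.1% of all LV-MEIS1 peaks. In flanking windows, 450 to 550 bp from the summit on each side, it was present at 29.2% and 33.3% of member peaks, and at 18.6% and 19.2% over the list. The member flanks are not all free of peaks. The VEGFC pair in intron 4 has summits 513 bp apart, so a flank of each covers the TGACA of the other. The interval of the member share included the share of the list, and both flank shares of the members lay below it. Above the list's median fold enrichment 6 of 9 member peaks held it (66.7%, 35.4 to 87.9%), and at or below it 10 of 15 (66.7%, 41.7 to 84.8%). Over the whole list these shares were 60.4% (58.6 to 62.1%) and 51.8% (50 to 53.6%), and the member intervals are too wide to show a difference of that size. Inside and outside repeats the member counts were again 6 of 9 and 10 of 15. None of the 6 HOXB13ko-LV-MEIS1 member peaks held the word, which allows up to 50%, and 16.8% of all peaks of that list did. The flanks of that whole list held it at 14.6% and 14.2%, close to the share at its summits.

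ATAAA, on both strands in the same window, was present at 15 of 24 LV-MEIS1 member peaks (62.5%, 42.7 to 78.8%), beside 45.8% over the list. Its flanks held it at 50% and 33.3%, and the interval of the first flank (31.4 to 68.6%) included the share at the summit. It was present at 0 of 6 HOXB13ko-LV-MEIS1 member peaks, which allows up to 50%, beside 13% of that list. The flanks of that whole list held it more often, at 23.9% and 24.3%, and those of the 6 peaks at 33.3% and 66.7%. The composite in which TGACA is followed after 2 bases by TTTAT was found at 0 of 24 within 100 bp, which allows up to 12.5%, and at 1.04% of all LV-MEIS1 peaks. Matches are of letters only and were not tested as binding sites. The G or C content around the summits was 39.6% at the median for LV-MEIS1 members and 54.2% for the 6 peaks of the other list, close to the 42.3% and 54.7% of the lists themselves.

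**Figure D4:**
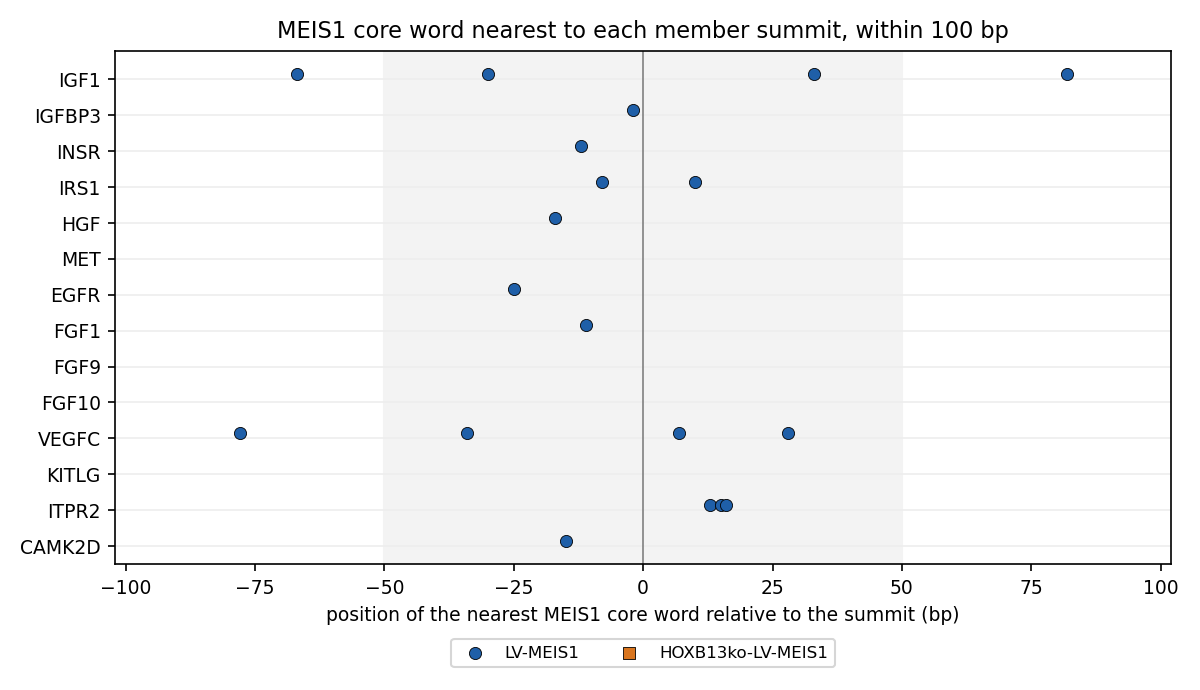
Position of the TGACA copy nearest to each member summit (horizontal axis, bp, searched within 100 bp; grey band, 50 bp to either side), by gene. There are 19 circles for the 24 LV-MEIS1 peaks, 16 of them in the band, and no squares, because none of the 6 HOXB13ko-LV-MEIS1 peaks has a copy; genes without a mark have none.

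The promoters of the members were searched for the same words, whether or not they held a peak. RefSeq windows were matched for 48 members, and 14 held TGACA on either strand (29.2%), beside 39.4% of all 27305 windows, which are counted singly although a gene can have several. ATAAA was in those of 24 members, and in 35.8% of all windows. A member with several windows was counted if any of them held the word. The member counts are therefore raised against the shares of single windows, and the comparison is not of like units.

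Some peaks lay in or next to a member gene but were named for another, because the annotation takes the nearest start site of any transcript, microRNAs and long noncoding RNAs included. There were 11 such LV-MEIS1 peaks at 6 members and none in the other list. ERBB4, the neuregulin receptor, had 6 of them. The strongest (chr2:211957942-211958355), in intron 2 of 26 and 580.7 kb from the gene's start, had a fold enrichment of 11.71 (95.8th percentile, q = 8.46e-35), above every peak named for a member. A peak in the 3′ UTR had 9.41 and 1 in intron 1 had 9.31, and the others had 7.38, 6.33 and 3.48. All were named for CPS1-IT1 or MIR548F2. ERBB4 is 1163.1 kb long and thus had 0.516 LV-MEIS1 peaks per 100 kb, beside 0.191 over chromosomes 1 to 22, X and Y, whereas its ligand genes NRG1 and NRG3, at 1216.4 and 1112.0 kb, had none. The 61 bases at the ERBB4 peaks of introns 2 and 1 are given because they were the stronger intronic sites. In intron 2 the word lies just outside 50 bp of the summit.
ERBB4, intron 2 (chr2:211958068-211958128, plus): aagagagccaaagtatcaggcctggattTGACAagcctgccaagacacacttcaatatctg
ERBB4, intron 1 (chr2:212227909-212227969, minus): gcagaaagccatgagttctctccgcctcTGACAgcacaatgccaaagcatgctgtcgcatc

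**Figure D5:**
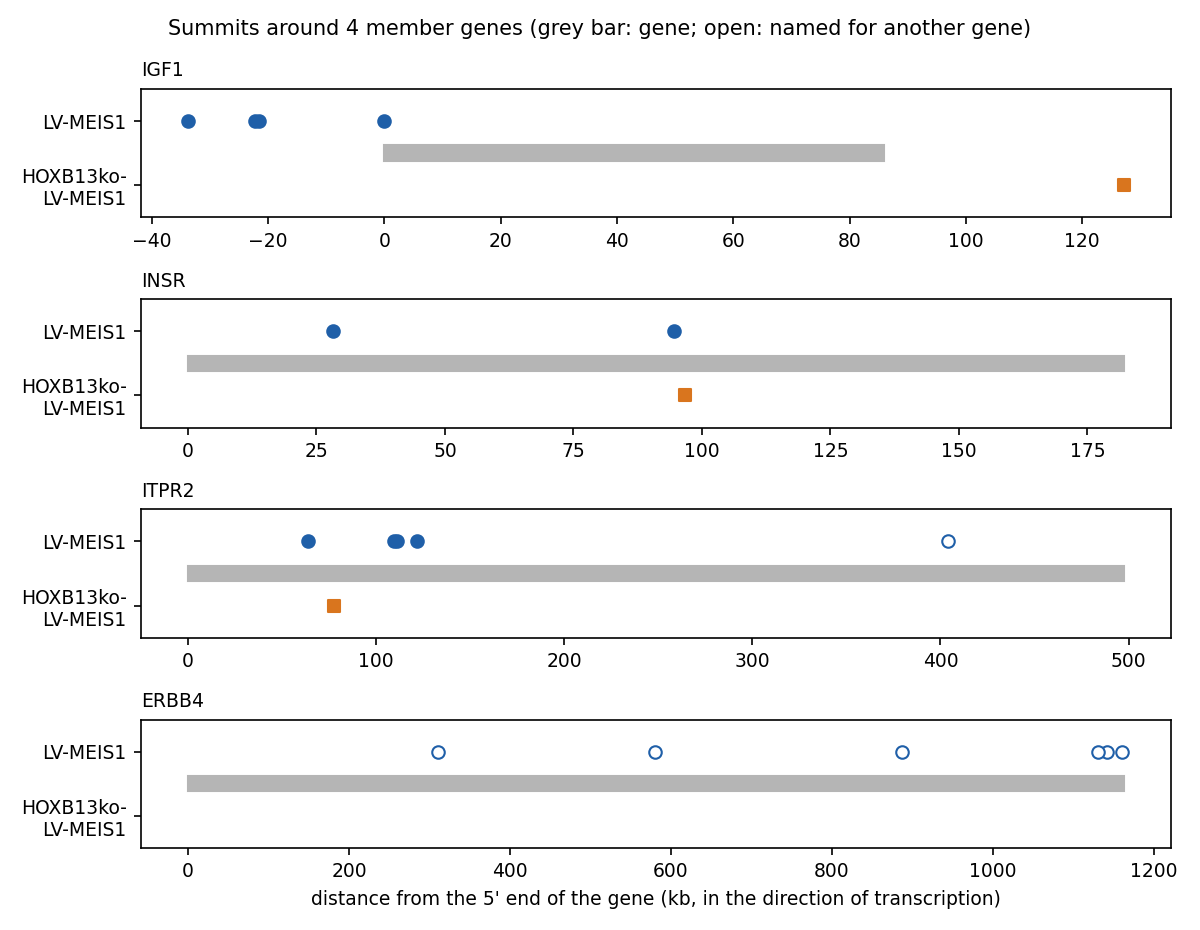
Summits around 4 genes in the direction of transcription (horizontal axis, kb from the gene's 5′ end; grey bar, the gene in GENCODE). Filled marks are peaks named for the gene, open circles LV-MEIS1 peaks named for another gene; IGF1 has 4 LV-MEIS1 summits at or before its start and its HOXB13ko-LV-MEIS1 summit beyond its end, and ERBB4 has 6 open circles and no square.

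IGF1R, the IGF1 receptor, had 1 peak in intron 2 that was named for MIR4714, with a fold enrichment of 6.65 (q = 8.64e-12). PIK3CA had 1 at 0.7 kb upstream of its start, named for LOC101928739, with 8.82 (83.7th percentile, q = 8.37e-30). That is within the 1000 bp of the promoter class, but the peak was annotated as intronic. FGF5 had 1 in its gene body as GENCODE draws it, 40.9 kb from its start, named for CFAP299, with 9.38 (87.7th percentile, q = 1.54e-22). The annotation classed that peak as intergenic. Further peaks named for another gene lay in HGF (4.70) and in intron 48 of ITPR2 (6.53). Counting every peak in a member gene or within 10 kb of it, 13 members had an LV-MEIS1 peak and 4 a HOXB13ko-LV-MEIS1 peak, beside 19.6% and 8.29% of all protein-coding genes. With both ways of assignment, 39 members had no peak in either list. By the shares just given, most protein-coding genes had no peak by position either. The share without a peak by both ways was not computed.

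A further 133 genes of the same pathways, in 8 lists, were counted in the same way. LV-MEIS1 peaks were named for 23 (17.3%) and HOXB13ko-LV-MEIS1 peaks for 8 (6.02%), close to the 14.7% and 5.64% of all protein-coding genes. The list of negative regulators, which shut down receptor and RAS signalling, had 10 of 20 genes with an LV-MEIS1 peak: CBLB, DUSP4, DUSP6, ERRFI1, RASA2, RASAL2, SPRED1, SPRED2, SPRY1 and SPRY2. Of these DUSP4 and DUSP6 also had HOXB13ko-LV-MEIS1 peaks. The count of 10 of 20 was the highest share among the 8 lists and was not tested. No interval and no share matched for gene length was computed for it. The counts in other lists were 3 of 17 for PI3K and AKT (3 of 17), 4 of 30 for other receptor kinases and their ligands (2 of 30), 1 of 15 for FGF ligands and co-receptors (1 of 15), 1 of 7 for the rest of the IGF axis (0 of 7), 1 of 16 for calcium effectors (0 of 16) and 0 of 4 for EGF and neuregulin ligands (0 of 4).

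Peaks that overlapped between the cell lines, of which the 57 members had none, occurred at 2 of these genes. DUSP4, a phosphatase that inactivates ERK, had an LV-MEIS1 peak 21239 bp downstream of its TSS with a fold enrichment of 12.55 (97.1st percentile, q = 7.12e-36). The HOXB13ko-LV-MEIS1 peak at the same place had 6.61 (66.4th percentile, q = 3.5e-11). PIK3R1, the regulatory subunit of PI3K, had overlapping peaks 256.8 kb from its TSS, with 8.88 (84.2nd percentile) and 8.23 (83.6th percentile of the other list). KL, an FGF co-receptor, held the third highest value among the 133 genes, 8.80 in LV-MEIS1 cells only. No gene of the lists had a promoter peak in both. Each of these overlapping peaks held TGACA within 50 bp of its summit in both lists.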

How the data were processed

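MEIS1 binding in the LV-MEIS1 and HOXB13ko-LV-MEIS1 derivatives of CWR22Rv1 was analysed from 1 deposited peak list and 1 deposited annotation per line. Per the submitters' processing notes, the methods and the file headers, the authors used CASAVA 1.8, trimmed reads with Trimmomatic 0.38, removed duplicates with Picard 2.18.10, aligned to hg38 with Bowtie2, and called peaks with MACS2 2.1.2 on pooled immunoprecipitations of each line. The headers of both lists name 1 input, from untreated CWR22Rv1 cells, whereas the methods describe input for each line; this was not resolved. The deposited LV-MEIS1 list holds fewer peaks than the study counted, and every count here is of the deposited list. The deposited signal is the scaled pileup at the summit, and the deposited fold enrichment is its ratio to the local background. The authors' p-values and q-values are deposited as −log10 values, in 2 columns whose header names were damaged. The authors annotated peaks with HOMER 4.9.1, which gives each summit's distance to the nearest TSS as the other deposited value. Depth was 202428594, 105763683 and 39102495 tags.

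Rows were selected by gene name. Members, lists, windows and alternatives were chosen with earlier results of these data known. Values are given for members named in both lists, with a promoter peak, with 3 or more peaks in 1 list, with 1 of the 5 highest fold enrichments in a list, or named in the HOXB13ko-LV-MEIS1 annotation; other members were to be given by class and distance only, but the values of HGF, EGFR, MET, FGF10 and CAMK2D were added to complete the account of each peak. Pathway genes are named if peaks overlapped, were promoter peaks in both lists, or ranked among the 3 highest. IGF1R, ERBB4, FGF5 and PIK3CA are named beyond that rule, with their values already known. Overlap was at least 1 bp. Words were searched in hg38, genes came from GENCODE release 44 and promoters from RefSeq (GRCh38.p14). Intervals are Wilson intervals for shares at 95%, and a count of 0 was given the limit of 3 counts. Sequences are shown for a selection of peaks, and the counts of 1 pathway list are not reported here. With 1 list per line there was no test between lines. Scripts were tested on simulated data. Python 3.11.15, numpy 2.4.6, pandas 2.3.3, scipy 1.17.1, pysam 0.24.0 and matplotlib 3.10.9 were used. Alternatives were stricter q-values and fold enrichments, limits of 100 kb and 10 kb to the TSS, peaks outside repeats, assignment by gene position, a shortened LV-MEIS1 list, other definitions of overlap, another word and another window.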

Additional observations from a re-analysis of the deposited data

How the results depend on the processing

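Of 43 values recomputed under alternative settings, 38 stayed within 1.5 times the reported count or inside its interval, and 5 moved. The 38 include counts of 0 that the alternative could not have raised. Members with an LV-MEIS1 peak were 12 as reported, 3 with the list shortened to the length of the other, and 2 within 10 kb of a TSS. Members with a HOXB13ko-LV-MEIS1 peak were 6 as reported, 2 outside repeats and 2 within 10 kb of a TSS. The share of LV-MEIS1 member peaks with TGACA, 66.7%, was 29.2% for the longer word TGACAG and between 57.7% and 79.2% under the other alternatives. A fold enrichment of at least 5 left 8 and 4 members. For these alternative counts of members the share of all protein-coding genes was not computed, so a fall in them is not shown to be particular to members. The count of 0 for overlap, and for TGACA at HOXB13ko-LV-MEIS1 member peaks, was 0 under each alternative run. Most alternatives only remove peaks or narrow the match, so a 0 could not rise and says nothing about stability. The overlap count could rise only with assignment by gene position or summits within 500 bp. The TGACA count could rise only with assignment by gene position or the window of 100 bp. Promoter starts from GENCODE, chosen after the data were seen, gave 4.17% of LV-MEIS1 member peaks in place of 0. No paired analysis was possible because each line has 1 pooled list, and no immunoprecipitation could be left out for the same reason. The depth of the input, 39102495 tags, limits the background of both lists.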
